A study of Mus musculus with 12 samples.

Results

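The transcriptome of the mouse cardiogenic region at embryonic day 14 (E14) was compared with that at embryonic day 9.5 (E9.5), the interval over which the looped tube of the early heart becomes an organ with chambers. The comparison used 6 of the 12 libraries of the series, 3 per stage, and covered 28846 genes that passed a filter on low counts out of 48709 gene intervals. All 6 libraries came from total RNA of dissected tissue that the labels call cardiogenic region, taken from mouse embryos at each stage, with no genotype, strain or treatment stated and no word on whether embryos were pooled. The other 6 libraries, of E8 and E8.5 tissue, entered the model and are given only to place a level in time. The series as a whole concerns a long non-coding RNA of the mesodermal programme and the DNA methyltransferase DNMT3B. Whether the 3 libraries of a stage stand for different embryos or litters is not in the labels. The p-values therefore rest on the variation among these libraries alone, part or all of which may be technical.

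As background, heart muscle cells of the early tube contract with a set of proteins partly shared with other muscle, feed on glucose and divide often. As the chambers grow, the cells add sarcomeres, a sarcoplasmic reticulum that stores calcium, cell-to-cell junctions and mitochondria able to burn fatty acids, while fibroblasts, coronary vessels, nerves and macrophages join the tissue. Blood passes from primitive red cells made in the yolk sac to definitive red cells made in the liver, and the 2 waves carry different globins.

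Library totals ran from 73056001 to 90620692 counts at E9.5 and from 56574386 to 97187372 at E14. The heart muscle markers Tnnt2, Actn2, Myh6, Myl7, Nkx2-5 and Ttn were all present at both stages, the lowest of their values in any library being 27.7 CPM (counts scaled to a common library size, TMM) for Nkx2-5. On the first principal component, which held 59.1% of the variance, the E9.5 libraries lay between -17.3 and 4.05 and the E14 libraries between 149 and 159. The E9.5 libraries were not alike: of 5888 genes that changed at least 2-fold, replicate 1 was the E9.5 library farthest from E14 in 47.1% and replicate 3 the nearest in 41.8%. Globin genes took 0.444%, 0.784% and 1.07% of the counts at E9.5 and 4.74%, 1.91% and 6.03% at E14, so that E14 replicate 2 held the least blood RNA of its stage. In bulk tissue, fewer cells of a type and less RNA per cell cannot be told apart.

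At an adjusted p under 0.05 in edgeR's quasi-likelihood test, 7334 genes (25.4% of those tested) were higher at E14 and 7082 (24.6%) were lower, 50.0% in all. A change of at least 2-fold was called for 3630 genes upward (12.6%) and 2258 downward (7.83%), and of at least 32-fold for 102 and 64. The median log2 fold change over all genes tested was 0.01. Counts of list members given later are to be read against these shares. Protein-coding genes called higher had a median genomic length of 32.2 kb, those called lower 18.6 kb and all tested 23.3 kb. Values are without an adjustment for genomic length unless one is stated, also for long genes. For each gene described, levels are those of replicates 1, 2 and 3 at E9.5 and then at E14, a value with ± is the log2 fold change (E14 over E9.5) with its SE, and coordinates are those of GRCm38. Markers of other cell types moved with the stage too: the 26 fibroblast and matrix genes summed to 1309 to 1463 CPM at E9.5 and 3934 to 4131 at E14, and the 22 endothelial genes to 555 to 630.0 and 1089 to 1125 CPM. Their part in the muscle and metabolic changes was not tested.

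**Figure D1:**
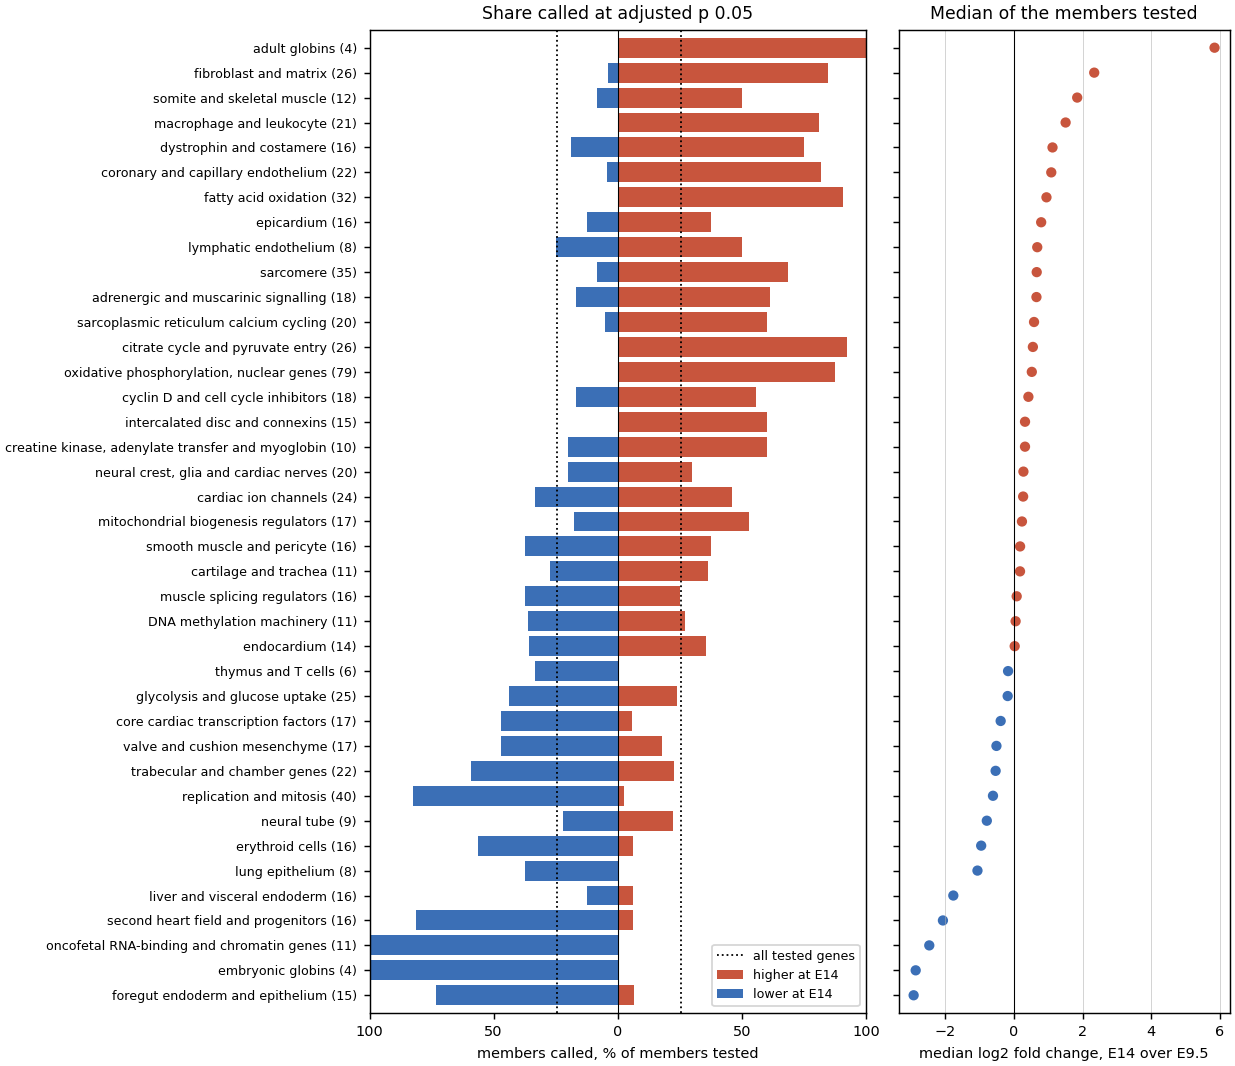
Left, the share of tested members of each gene list called higher (right of 0) or lower (left of 0) at E14, with the number tested in brackets and dotted lines at 25.4% and 24.6%, the shares over all genes. Right, the median log2 fold change of the same members, from 5.85 for the adult globins to -2.93 for foregut endoderm and epithelium.

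Among protein-coding genes present at 10 CPM or more in the higher stage, the largest rise was that of Ckm, the creatine kinase of muscle cytosol (chromosome 7, 19404776 to 19422841, plus strand). Ckm stood at 1.26, 1.24 and 1.40 CPM in the 3 E9.5 libraries and at 554, 496 and 509 CPM at E14. Its E14 libraries were all far above its E9.5 libraries, a log2 fold change of 8.64 ± 0.12 (edgeR adjusted p = 1.94e-12). Sln, which encodes sarcolipin, an inhibitor of the calcium pump, rose from 0.0131, 0.0680 and 0.0571 CPM to 20.2, 12.3 and 15.9 CPM (8.37 ± 0.40). Ptgds, a prostaglandin D synthase, went from 0.0131, 0.0453 and 0.0228 to 11.2, 9.57 and 11.3 CPM (8.53 ± 0.37). Fabp4, a fatty acid carrier of capillary endothelium and fat, went from 0.538, 0.193 and 0.137 to 50.2, 47.0 and 49.8 CPM (7.44 ± 0.56). The rest of the 12 largest rises were 5 matrix genes (Dpt, Col6a6, Thbs2, Mgp, Eln) with Asb11, a ubiquitin ligase adaptor of muscle, and the adult globins Hbb-bs and Hbb-bt. Markers of skeletal muscle were present at E14: its developmental myosins Myh3 and Myh8 reached at most 4.82 and 9.55 CPM, and Myod1 had 23 counts over the 3 E14 libraries. Its part in the rise of genes that both muscles express was not tested.

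The largest fall was that of Lin28a, an RNA-binding protein that blocks maturation of the let-7 microRNAs in early embryos (chromosome 4, 134003330 to 134018841, minus strand). Its levels were 104, 58.4 and 51.2 CPM at E9.5 and 0, 0.0756 and 0 CPM at E14, with 7 counts over the 3 E14 libraries together (-11.09 ± 0.56, edgeR adjusted p = 8.18e-08). Tdgf1, the NODAL co-receptor also called Cripto, went from 3228 counts over the E9.5 libraries to 2 over the E14 libraries, a ratio of 1422 with an exact 95% interval of 393 to 11740 that covers counting error only. Foxh1, a transcription factor that works with SMAD proteins downstream of NODAL, went from 21.8, 11.8 and 11.1 to 0.0190, 0.0216 and 0.0261 CPM (-9.29 ± 0.44). Both genes of the NODAL pathway were highest in E9.5 replicate 1. Nptx2 (-8.62 ± 0.34), Cck (-7.66 ± 0.48), Trim71 (-5.93 ± 0.19), Col2a1 (-5.17 ± 0.17), Igdcc3 (-4.75 ± 0.27) and Lmod1 (-4.71 ± 0.19) fell, as did 3 blood genes, Hbb-bh1, Pklr and Klf1. A lack of overlap between the stages was a condition for ranking a gene among these falls or the rises above.

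**Figure D2:**
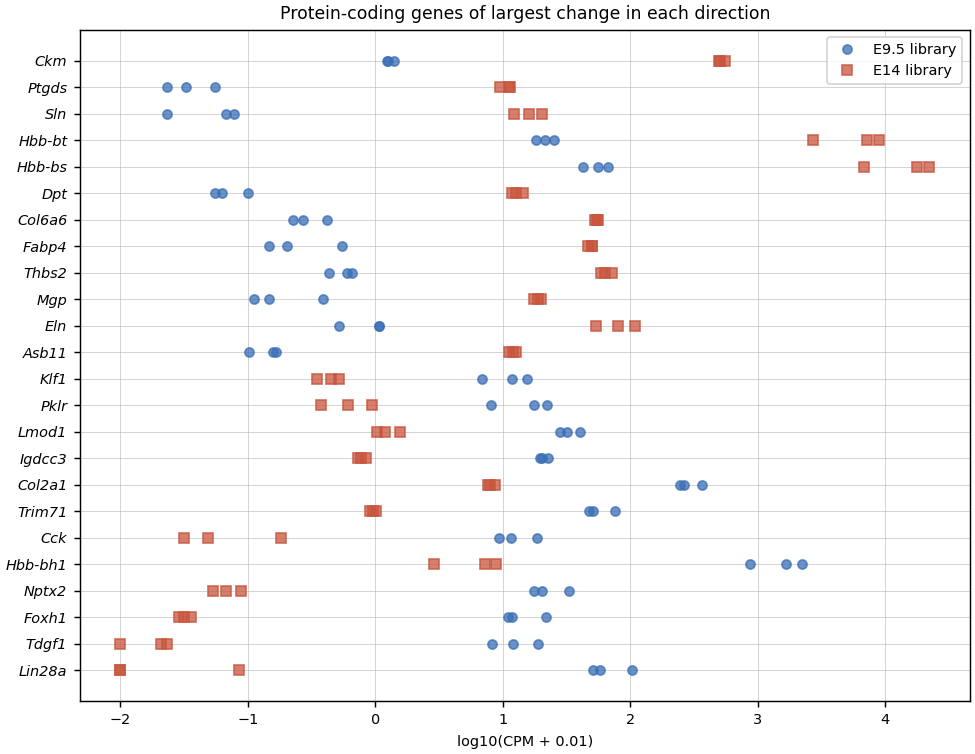
Levels of the 12 protein-coding genes with the largest called rise and the 12 with the largest called fall, as log10(CPM + 0.01), 1 point per library. Only genes whose E14 libraries (squares) did not overlap the E9.5 libraries (circles) could be among the 24.

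Of 35 sarcomere genes, 24 were higher at E14, 3 were lower and 8 were not called, with a median of 0.66. The thick filament genes Myh7 and Myl2, the slow or beta myosin heavy chain and the ventricular regulatory light chain, were among those that rose, Myh7 from 3008, 4364 and 4192 to 7021, 7361 and 7241 CPM (0.90 ± 0.14). Myl2 stood at 888, 1357 and 1405 CPM at E9.5 and 2908, 2946 and 2952 CPM at E14 (1.27 ± 0.20, edgeR adjusted p = 1.92e-04), with E9.5 replicate 1 lowest. Myl7, its atrial counterpart, fell from 1631, 1615 and 1412 to 785, 575 and 583 CPM (-1.26 ± 0.14). Myh6, the alpha myosin heavy chain, overlapped between stages at 3277, 3377 and 3107 and 3494, 3426 and 3270 CPM (0.06 ± 0.11, edgeR adjusted p = 0.654).

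In the thin filament, the troponin genes Tnnt2 (1.12 ± 0.12), Tnni3 (1.31 ± 0.16), Tnnc1 (0.64 ± 0.10) and Tnni1 (0.52 ± 0.10) all rose, including Tnni1, the slow skeletal form that Tnni3 later replaces. The 2 sarcomeric actins parted: Acta1, the skeletal form, fell from 585, 605 and 564 to 221, 183 and 215 CPM (-1.5 ± 0.12), whereas Actc1, the cardiac form, stood at 3639, 3833 and 3658 and 3844, 3716 and 3795 CPM (0.03 ± 0.12, edgeR adjusted p = 0.868). The largest sarcomere changes were at the M-band and Z-disc. Myom2, an M-band protein of fast-contracting muscle, rose from 0.525, 0.294 and 0.320 to 24.9, 23.4 and 24.9 CPM (6.01 ± 0.33). Myoz2, a Z-disc protein that binds calcineurin, rose from 3.28, 8.05 and 8.52 to 94.3, 85.6 and 98.7 CPM (3.81 ± 0.33). Xirp2, which binds actin at junctions, rose from 0.381, 0.385 and 0.343 to 2.70, 2.85 and 3.40 CPM (3.01 ± 0.29), and Nebl, a Z-disc nebulin relative, fell (-0.81 ± 0.09). Ttn, the titin spring, was called at 0.83 ± 0.31 (edgeR adjusted p = 0.0419), but with an adjustment for the genomic length of genes it was 0.35 ± 0.32 and no longer called (edgeR adjusted p = 0.386). The call of Ttn also ended without any 1 of E8 replicates 1 to 3, E8.5 replicate 2, E9.5 replicates 1 to 3 and E14 replicates 2 and 3 (0.0550 to 0.155).

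The 250 bases upstream of the start site were read for the genes in the RefSeq promoter table of GRCm38.p6 and searched on both strands. The letters CTA, any 4 bases and TAG, the core of a MEF2 site, occurred in 5 of the 19 windows found for the 24 sarcomere genes that rose (26.3%) and in 2.76% of the 14720 windows of all tested genes. The general E-box letters CANNTG occurred in 18 of 19 (94.7%) and in 60.5% of all windows. A match is a description of these letters and not a site shown to be used. Mybpc3, a thick filament protein, and Smpx, a small stretch-responsive protein, were 2 of the 5 genes (0.48 ± 0.10 and 0.89 ± 0.12), beside Myoz2, Xirp2 and Ttn. The windows of 4 of them are shown 5′ to 3′, ending 1 base before the start site, with the MEF2 letters in capitals, because these genes rose together and share the match.
Mybpc3, chr2:91117894-91118143, plus strand: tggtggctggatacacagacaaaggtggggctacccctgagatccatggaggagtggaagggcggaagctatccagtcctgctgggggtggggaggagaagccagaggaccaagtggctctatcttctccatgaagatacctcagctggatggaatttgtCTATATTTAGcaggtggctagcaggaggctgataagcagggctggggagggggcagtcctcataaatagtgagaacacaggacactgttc
Myoz2, chr3:123034988-123035237, minus strand: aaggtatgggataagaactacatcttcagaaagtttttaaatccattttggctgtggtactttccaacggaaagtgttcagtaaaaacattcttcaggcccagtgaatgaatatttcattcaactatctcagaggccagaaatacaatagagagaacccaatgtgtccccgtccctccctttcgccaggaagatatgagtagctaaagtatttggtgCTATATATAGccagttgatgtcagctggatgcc
Xirp2, chr2:67445752-67446001, plus strand: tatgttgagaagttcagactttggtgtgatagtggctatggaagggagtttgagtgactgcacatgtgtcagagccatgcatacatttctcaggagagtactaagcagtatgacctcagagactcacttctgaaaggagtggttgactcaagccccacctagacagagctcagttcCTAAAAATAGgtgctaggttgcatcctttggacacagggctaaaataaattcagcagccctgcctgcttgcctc
Smpx, chrX:157698723-157698972, plus strand: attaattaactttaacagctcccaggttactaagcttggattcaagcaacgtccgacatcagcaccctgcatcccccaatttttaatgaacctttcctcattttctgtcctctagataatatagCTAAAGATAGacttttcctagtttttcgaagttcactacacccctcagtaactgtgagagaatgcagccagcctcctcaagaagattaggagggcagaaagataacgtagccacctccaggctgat
The match starts 33 bases before the start site in Myoz2, 74 in Xirp2, 90 in Mybpc3 and 126 in Smpx.

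Of 16 genes of the dystrophin complex and the costamere, which ties the sarcomere to the membrane and matrix, 12 rose, 3 fell and 1 was not called (median 1.12). Dmd, the dystrophin gene, rose from 171, 179 and 124 to 539, 777 and 866 CPM (2.2 ± 0.31), and by 1.25 ± 0.18 with the adjustment for gene length. Cav3, the caveolin of muscle, rose from 3.24, 7.67 and 9.57 to 50.0, 46.9 and 45.2 CPM (2.79 ± 0.33). Lama2 (2.76 ± 0.13), the laminin chain that dystroglycan binds, and Sspn (2.33 ± 0.23), sarcospan, rose too. Sspn had higher means at E8 (137 CPM) and E8.5 (70.5 CPM) than at E9.5 (15.5 CPM). Its E14 mean was 78.1 CPM, below that of E8, and the earlier values were not tested. Sntb1, Ank3 and Sptbn4 fell.

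Of 15 genes of the intercalated disc, where heart muscle cells join end to end, 9 rose and none fell (median 0.32), and of the 6 without a call the lowest value was that of Dsc2 (-0.33 ± 0.15, edgeR adjusted p = 0.0941). With the adjustment for gene length 6 rose: Cdh2 and Ctnna3, an N-cadherin and a catenin encoded by long genes, had values of 0.17 ± 0.10 (edgeR adjusted p = 0.206) and 0.30 ± 0.18 (0.189) there. The call of Cdh2 also ended without E9.5 replicate 3, E14 replicate 2 or E14 replicate 3 (0.0514 to 0.0719). Nrap, which anchors growing myofibrils at the disc, rose from 5.01, 6.60 and 7.10 to 122, 121 and 129 CPM (4.31 ± 0.16). The gap junction genes differed from one another. Gja1, connexin 43 of working muscle, rose from 24.9, 34.8 and 38.0 to 187, 186 and 186 CPM (2.52 ± 0.13), in E14 libraries that were nearly equal. Gja5, connexin 40 of atria, conduction system and arteries, rose by 1.71 ± 0.12, and Gja3, connexin 46, by 5.05 ± 0.17. Gjc1, connexin 45 of the early tube, overlapped at 39.6, 34.9 and 35.0 and 35.8, 38.8 and 37.3 CPM (0.03 ± 0.15, edgeR adjusted p = 0.890).

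Calcium cycling moved in its store and its regulators. Of 20 genes 12 rose, 1 fell and 7 were not called (median 0.59). With the adjustment for gene length 3 fell and the median was 0.34. Casq2, calsequestrin, which holds calcium in the store (chromosome 3, 102086415 to 102146514, plus strand), rose from 3.64, 6.22 and 7.81 CPM to 435, 386 and 428 CPM, with no overlap (6.14 ± 0.23, edgeR adjusted p = 6.85e-09). Pln, phospholamban, the brake on the calcium pump, rose from 36.6, 98.3 and 120.1 to 719, 618 and 671 CPM (2.98 ± 0.39), with E9.5 replicate 1 well below the other 2. Trdn (1.63 ± 0.15) and Srl (1.48 ± 0.13), proteins of the store, S100a1 (2.11 ± 0.23), a calcium sensor, and Itpr2 (2.17 ± 0.18), a release channel of the inositol phosphate pathway, also rose. The pump, the main release channel and the exchanger had no call: Atp2a2 (0.11 ± 0.09, edgeR adjusted p = 0.351), Ryr2 (-0.19 ± 0.21, 0.491) and Slc8a1 (0.31 ± 0.26, 0.344) all overlapped between stages. Tmem38b, a counter-ion channel of the store, fell (-0.97 ± 0.20) while its relative Tmem38a rose (1.12 ± 0.10).

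Ion channel genes went both ways, 11 of 24 higher and 8 lower (median 0.27, and -0.09 with the adjustment for gene length). The pacemaker channel gene Hcn4 fell from 73.1, 41.9 and 41.9 to 7.08, 8.83 and 7.40 CPM (-2.75 ± 0.23, edgeR adjusted p = 2.79e-06), highest in E9.5 replicate 1. Of the calcium channel subunits Cacna1d (-1.56 ± 0.26) and Cacna1h (-1.34 ± 0.25) fell, Cacna1g (2.11 ± 0.24) and Cacna2d1 (1.57 ± 0.18) rose, and Cacna1c, the main pore of the working heart, had no call (0.33 ± 0.29, edgeR adjusted p = 0.374). Most called potassium channel genes rose. Kcnj2, the inward rectifier that holds the resting potential, went from 4.09, 6.82 and 6.55 to 32.2, 26.7 and 28.4 CPM (2.32 ± 0.22). Kcne1, a partner of the slow delayed rectifier, went from 3.01, 4.87 and 5.11 to 30.4, 30.3 and 31.4 CPM (2.82 ± 0.26), and Kcnd2, a transient outward channel, rose by 3.02 ± 0.30. Kcnj5, Kcnh2 and Kcna5 fell, the second not without E9.5 replicate 1 (edgeR adjusted p = 0.0778) and Kcna5 not without any 1 of E9.5 replicates 1 and 2 and the 3 E14 libraries (0.0555 to 0.0824). Scn4b, an auxiliary subunit of sodium channels, fell from 5.70, 6.26 and 6.26 to 0.418, 0.400 and 0.339 CPM (-3.98 ± 0.33).

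Several receptors for nerve signals rose. Chrm2, the muscarinic receptor through which the vagus slows the heart, stood at 5.55, 7.15 and 5.84 CPM at E9.5 and 61.3, 71.8 and 79.4 at E14 (3.52 ± 0.20, edgeR adjusted p = 1.03e-07). Adrb1, the main beta-adrenergic receptor of heart muscle, rose from 0.669, 0.566 and 0.594 to 3.23, 2.60 and 2.96 CPM (2.26 ± 0.22). Of the 18 genes of this signalling list 11 rose and 3 fell (median 0.66). The scaffold genes Akap6 and Akap5 went opposite ways, at 2.12 ± 0.16 and -2.23 ± 0.17. Genes of the cardiac nerves themselves were low: Dbh, the enzyme that makes noradrenaline, rose from 0.144, 0.102 and 0.0913 to 0.854, 0.735 and 0.860 CPM (2.85 ± 0.49), and Th, the first enzyme of that pathway, fell (-1.47 ± 0.38).

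The transcription factors that specify the heart did not rise with the genes of the mature muscle. Of 17 core factors 1 rose, 8 fell and 8 were not called (median -0.39). Nkx2-5, the homeobox factor of cardiac progenitors and muscle (chromosome 17, 26838664 to 26841565, minus strand), fell from 80.2, 71.2 and 65.9 to 30.5, 28.6 and 27.7 CPM (-1.32 ± 0.13, edgeR adjusted p = 4.66e-06). Gata5 fell from 74.1, 54.0 and 51.4 to 6.36, 7.30 and 6.50 CPM (-3.15 ± 0.15), Gata4 had -0.39 ± 0.15 (edgeR adjusted p = 0.0536) and Gata6 0.21 ± 0.09 (0.0610). Hand1, of the left ventricle and outer curvature, and its relative Hand2 fell, at -2.55 ± 0.11 and -0.56 ± 0.09, values whose difference was not tested. Mef2a was the factor that rose, from 119, 109.7 and 102 to 271, 303 and 311 CPM (1.42 ± 0.12). Without E9.5 replicate 1, 3 core factors were called higher and 6 lower, and without E8.5 replicate 3, 3 were called higher.

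Of 16 genes of the second heart field and early progenitors, 13 fell, 1 rose and 2 were not called (median -2.07). Isl1, the LIM homeobox factor of these cells, went from 10.3, 8.81 and 8.17 to 1.41, 1.35 and 1.5 CPM (-2.68 ± 0.17, edgeR adjusted p = 1.62e-07). The growth factor genes Fgf8 (-3.84 ± 0.30) and Fgf10 (-2.04 ± 0.30) and the retinoid binder Crabp1 (-3.14 ± 0.28) fell, and Osr1 rose (1.30 ± 0.14). Mesp1, a factor of the earliest cardiac mesoderm, had 458 counts over the E9.5 libraries and 0 over the E14 libraries. With 3 counts in the E14 group taken as the limit that 0 allows, this is at least 134.5-fold lower. Over the E8 and E8.5 libraries Mesp1 had only 25 and 9 counts, far below its E9.5 total. These earlier values were not tested. T, the brachyury gene of nascent mesoderm, was under 1 CPM at both stages, at 0.118, 0.0793 and 0.0228 and 0.228, 0.184 and 0.195 CPM (1.46 ± 0.48, edgeR adjusted p = 0.0251), and its call ended without any 1 of E9.5 replicates 2 and 3 and the 3 E14 libraries (0.0512 to 0.0779).

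Genes that mark parts of the early heart went both ways, with 5 of 22 higher and 13 lower (median -0.53). Nppa, the atrial natriuretic peptide gene of trabeculae and atria, rose from 241, 327 and 333 to 896, 698 and 792 CPM (1.41 ± 0.21), as did Bmp10 (1.01 ± 0.10), which drives trabecular growth, Cited1 (0.99 ± 0.23) and Hey2 (0.82 ± 0.09), a compact wall factor. Nppb overlapped (-0.19 ± 0.11, edgeR adjusted p = 0.156). Factors of the atrioventricular canal and conduction tissue were lower: Tbx2 (-1.83 ± 0.20), Tbx3 (-1.94 ± 0.09) and their inducer Bmp2, from 22.7, 16.1 and 14.6 to 3.17, 3.73 and 3.40 CPM (-2.37 ± 0.21). Of 2 related guidance ligands Slit2 rose from 37.1, 40.7 and 40.4 to 266, 315 and 302 CPM (2.90 ± 0.11) and Slit3 fell from 366, 242 and 219 to 96.1, 140.1 and 114 CPM (-1.24 ± 0.26).

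Of 32 genes of fatty acid uptake and oxidation 29 rose and none fell (median 0.95). The 3 without a call were Hadh (0.18 ± 0.09, edgeR adjusted p = 0.0974), Slc22a5 (0.31 ± 0.14, 0.0925) and Ucp3 (0.51 ± 0.57, 0.483). Ppara, the nuclear receptor that turns this programme on (chromosome 15, 85734983 to 85802819, plus strand), rose from 0.630, 0.691 and 0.651 to 8.49, 9.10 and 9.11 CPM (3.76 ± 0.13, edgeR adjusted p = 3.18e-09). Cd36, the fatty acid importer, rose from 20.2, 22 and 19.9 to 107, 99.6 and 108 CPM (2.34 ± 0.14), and Fabp3, the carrier of heart muscle, from 36.8, 44.6 and 43.9 to 155, 153 and 148 CPM (1.86 ± 0.11). Cd36 is also a marker of capillary endothelium and was counted in that list too.

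The gate into mitochondria was represented by both forms of carnitine palmitoyltransferase. Cpt1a, the form of liver and fetal heart, rose from 2.49, 4.55 and 5.13 to 40.3, 42.0 and 43.2 CPM (3.36 ± 0.24), and Cpt1b, the muscle form, from 86.1, 107 and 103 to 201, 184 and 180.5 CPM (0.94 ± 0.12). Within a library, the ratio of Cpt1b to Cpt1a therefore went down. Among the dehydrogenases of the spiral, which differ in the chain length they take, Acadl (2.48 ± 0.14) and Acadvl (1.48 ± 0.13), for long chains, had larger values than Acadm (1.11 ± 0.09) and Acads (0.42 ± 0.12), for medium and short chains. The call of Acads ended without E9.5 replicate 1 (edgeR adjusted p = 0.0558) or E14 replicate 1 (0.0641). Hadha (0.98 ± 0.10) and Hadhb (0.67 ± 0.12), the 2 subunits of the trifunctional protein, rose together. Pdk4, which shuts pyruvate out of the citrate cycle, rose from 3.45, 4.83 and 5.16 to 23.7, 23.0 and 21.4 CPM (2.34 ± 0.21).

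Of 79 nuclear genes for the respiratory chain and ATP synthase 69 rose and none fell, by small amounts (median 0.52). In complex I, Ndufv1, which takes electrons from NADH, had 79.5, 104 and 104 CPM at E9.5 and 186, 166 and 171 at E14 (0.87 ± 0.11, edgeR adjusted p = 3.31e-05). E9.5 replicate 1 was the lowest there, as it was for most of the list: the summed level was 8233, 9631 and 9719 CPM at E9.5 and 13870, 12270 and 12640 at E14. Leaving that library out took the count to 61 and the median to 0.43. Cycs, cytochrome c, was the lowest of the 79 (-0.04 ± 0.13, edgeR adjusted p = 0.808). The exception in size was Cox8b, a cytochrome oxidase subunit form of heart and skeletal muscle, from 0.302, 0.430 and 0.662 to 18.2, 16.4 and 18.3 CPM (5.23 ± 0.25), and the next was Cox6a2, another muscle form (1.48 ± 0.23). Only 1 of the 79 passed a test for a change beyond 2-fold. The 37 mitochondrially encoded genes are listed at 0 in all libraries and were not analysed here.

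Of 26 genes of the citrate cycle and of pyruvate entry 24 rose and none fell (median 0.55). Idh2, the NADP-linked isocitrate dehydrogenase, rose from 202, 259.6 and 252 to 844, 760.0 and 769 CPM (1.73 ± 0.10), and Mdh1, the cytosolic malate dehydrogenase of the shuttle for reducing power, by 1.39 ± 0.14. Pdk2, a kinase that restrains pyruvate dehydrogenase, had the largest value, from 2.57, 3.41 and 3.77 to 25.2, 26.5 and 26.3 CPM (3.0 ± 0.18), beside 0.49 ± 0.08 for Pdk1. Both subunits of the mitochondrial pyruvate carrier rose, Mpc1 by 1.39 ± 0.13 and Mpc2 by 1.10 ± 0.11. Without E14 replicate 1, 18 of the 26 rose. Among regulators of mitochondria 9 of 17 rose and 3 fell: Ppargc1a, the coactivator PGC-1alpha, rose from 47.8, 45.6 and 38.9 to 104, 122 and 126 CPM (1.41 ± 0.24) and Perm1, a muscle regulator of the same pathway, from 0.787, 0.759 and 0.639 to 6.06, 6.17 and 6.92 CPM (3.13 ± 0.16). The 3 that fell were Tfam (-0.34 ± 0.09), Polg (-0.64 ± 0.15) and Polrmt (-0.40 ± 0.08), which act on mitochondrial DNA. Tfb2m, which works with Tfam and Polrmt in its transcription, rose (0.23 ± 0.08), a call that ended without E9.5 replicate 1 or 2 or any 1 of the E14 libraries (edgeR adjusted p = 0.0806 to 0.139).

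**Figure D3:**
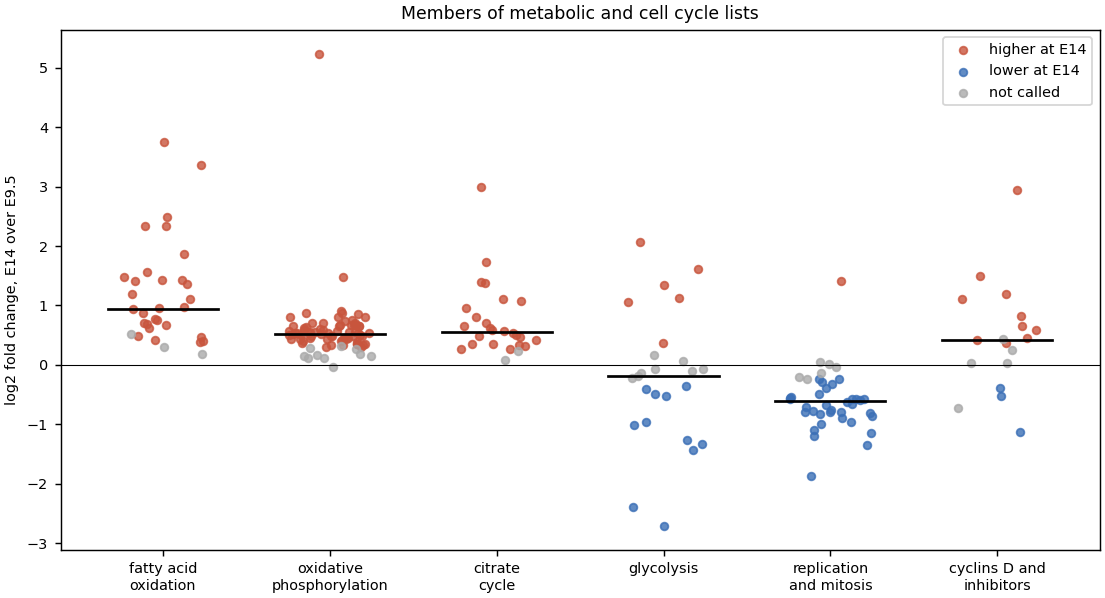
Log2 fold change of every tested member of 6 lists, coloured by call, with a bar at the median. All called members of fatty acid oxidation, oxidative phosphorylation and the citrate cycle lie above 0, glycolysis is split between 6 higher and 11 lower, and replication and mitosis have 33 of 40 lower.

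Glycolysis did not move as 1 block: 6 of 25 genes rose and 11 fell (median -0.18). Transporters went both ways. Slc2a1, the glucose transporter GLUT1 of embryonic tissue (chromosome 4, 119108711 to 119137983, plus strand), went from 436, 459.8 and 459 to 93.0, 83.1 and 83.2 CPM (-2.39 ± 0.08, edgeR adjusted p = 3.18e-09). Slc2a3 fell too (-2.71 ± 0.43), and Slc2a4, the insulin-dependent GLUT4 of muscle, rose from 4.55, 6.59 and 7.26 to 19.2, 17.6 and 19.5 CPM (1.61 ± 0.16). Along the pathway Hk2, the hexokinase of muscle (-1.26 ± 0.09), Pkm, the pyruvate kinase (-0.49 ± 0.12), Pgam1 (-1.01 ± 0.11), Eno1 (-1.33 ± 0.09) and Ldha (-0.95 ± 0.11) fell, and so did Slc16a3, the exporter of lactate (-1.44 ± 0.09). Among the genes that rose were Pfkm (1.12 ± 0.08), Pgam2 (1.06 ± 0.11) and Eno3 (0.37 ± 0.10), forms found in muscle, and Ldhb, the heart form of lactate dehydrogenase, from 42.2, 59.2 and 64.3 to 229.6, 234 and 230.5 CPM (2.06 ± 0.18). Without E14 replicate 1, Eno3 was not called (edgeR adjusted p = 0.0571). Among the 8 genes with no call were Gpi1 (0.07 ± 0.09, edgeR adjusted p = 0.575), Tpi1 (-0.07 ± 0.11, 0.639) and Gapdh (-0.13 ± 0.11, 0.335).

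Oxygen and energy carriers of muscle rose, with 6 of 10 higher and 2 lower. Mb, myoglobin, went from 3.31, 4.80 and 5.03 to 134, 107 and 125 CPM (4.80 ± 0.27, edgeR adjusted p = 1.27e-07). Beside the rise of Ckm, its brain-type relative Ckb fell from 103, 92.9 and 84.6 to 63.4, 54.1 and 57.9 CPM (-0.67 ± 0.10). The creatine importer Slc6a8 rose (0.79 ± 0.06), and Gamt, which makes creatine, fell (-0.52 ± 0.12).

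These exchanges between related genes were measured as the log2 ratio of a late to an early form within each library (CPM + 0.5), for 23 pairs of the same protein or step. In 17 pairs the late form gained in all 3 E14 libraries over all 3 E9.5 libraries, in 5 it lost in all, and in 1 pair, Mbnl1 over Mbnl3, the libraries overlapped. Over all genes, 32.3% were higher without overlap at E14 and 30.7% lower. The exact two-sided permutation test of 3 against 3 libraries cannot go below p = 0.10, which every pair without overlap reached (0.1045 after Benjamini-Hochberg adjustment over the 23).

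The ratio of Ckm to Ckb went from -5.87, -5.75 and -5.48 at E9.5 to 3.12, 3.19 and 3.12 at E14. That of Slc2a4 to Slc2a1 went from -6.43, -6.02 and -5.89 to -2.24, -2.21 and -2.07, and that of Ldhb to Ldha from -4.80, -4.39 and -4.16 to -1.54, -1.32 and -1.38. In each of these the direction was the same in every library and the shift was several times the spread. The ventricular over the atrial light chain, Myl2 over Myl7, shifted by 2.57, and nuclear lamin A/C over B1, Lmna over Lmnb1, by 2.12. The 5 pairs that went against the order listed were Myh6 over Myh7 (-0.86), Acta1 over Actc1 (-1.53), Cpt1b over Cpt1a (-2.33), Hk2 over Hk1 (-1.03) and Jph2 over Jph1 (-0.46). The first of these was the ratio of the adult mouse ventricular myosin to the fetal one.

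**Figure D4:**
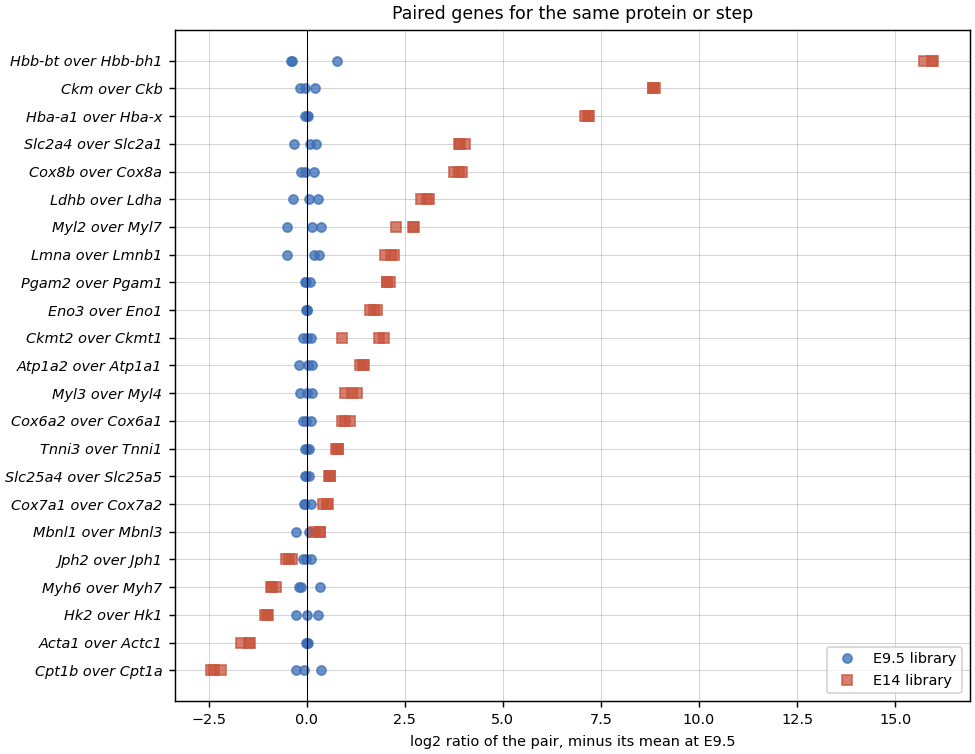
Log2 ratio of the late over the early form of 23 pairs in each E9.5 (circles) and E14 (squares) library, set to 0 at the E9.5 mean of the pair. The ratio of beta globins, Hbb-bt over Hbb-bh1, moved the most, by 15.88, and Cpt1b over Cpt1a fell the most, by 2.33.

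Genes of DNA replication and mitosis were lower at E14, 33 of 40, with 1 higher and 6 not called (median -0.61). Mybl2, a transcription factor of dividing cells (chromosome 2, 163054687 to 163084688, plus strand), fell the most, from 51.6, 41.8 and 38.0 to 12.2, 11.5 and 12.2 CPM (-1.87 ± 0.10, edgeR adjusted p = 6.44e-08). Ccnb1, the mitotic cyclin B1, fell from 159, 179 and 179 to 89.7, 75 and 78.1 CPM (-1.09 ± 0.11), and Ccne1, the cyclin of S phase entry, fell too (-1.34 ± 0.11). All 6 subunits of the MCM helicase fell, from -0.96 ± 0.11 for Mcm5 to -0.38 ± 0.10 for Mcm6. Mki67, the common marker of cycling cells, overlapped at 306, 391 and 412 and 394, 371 and 377 CPM (0.04 ± 0.13, edgeR adjusted p = 0.808). E2f2 was the member that rose, from 5.46, 8.09 and 9.42 to 24.0, 13.1 and 24.5 CPM (1.42 ± 0.24), and it was lowest at E14 in replicate 2, the library with the least globin. For 2 of the 33 genes, Ccna2 and Ccnb2, the libraries of the 2 stages overlapped although the test called them, and both calls ended without any 1 of E9.5 replicates 2 and 3 and E14 replicates 2 and 3 (edgeR adjusted p 0.0730 to 0.152). That of Ccnb2 also ended without any of the 3 E8 libraries (0.0506 to 0.0516).

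Promoters of these genes were searched for CCAAT, bound by the factor NF-Y, and for TTTGAA, the cell cycle homology region at which repressing and activating complexes of the cell cycle bind. In 28 windows found for the 33 genes that fell, 21 held CCAAT on either strand (75%, against 35.3% of all 14720 windows) and 8 held TTTGAA (28.6% against 12.1%). The E2F letters GCGGGAA occurred in 4 of 28 (14.3% against 5.83%). TTTGAA was not particular to this set: it occurred in 5 of 14 windows of the fibroblast and matrix genes that rose (35.7%). In the other sets searched, the share with CCAAT ran from 14.3% (fibroblast and matrix) to 57.1% (calcium cycling, 4 of 7 windows). The windows of 4 genes that hold both of the first 2 motifs are shown because the spacing of the matches can be seen in them, with either motif, on either strand, in capitals. Cdk1 is the mitotic kinase (-0.57 ± 0.09), Ccnb2 a cyclin partner of it (-0.29 ± 0.11), Cdc20 an activator of the complex that ends mitosis (-0.55 ± 0.10) and Top2a the topoisomerase that untangles chromosomes (-0.63 ± 0.11).
Ccnb2, chr9:70421555-70421804, minus strand: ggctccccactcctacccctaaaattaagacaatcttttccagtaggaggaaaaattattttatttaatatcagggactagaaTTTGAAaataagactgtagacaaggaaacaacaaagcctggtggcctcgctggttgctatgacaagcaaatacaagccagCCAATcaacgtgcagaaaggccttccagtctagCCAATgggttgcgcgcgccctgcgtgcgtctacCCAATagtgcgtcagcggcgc
Cdk1, chr10:69352913-69353162, minus strand: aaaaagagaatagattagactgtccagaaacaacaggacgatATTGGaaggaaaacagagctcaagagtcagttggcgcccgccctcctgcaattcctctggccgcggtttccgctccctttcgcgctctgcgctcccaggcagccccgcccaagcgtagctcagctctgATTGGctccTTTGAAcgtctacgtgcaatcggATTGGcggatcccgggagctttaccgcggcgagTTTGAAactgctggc
Cdc20, chr4:118437344-118437593, minus strand: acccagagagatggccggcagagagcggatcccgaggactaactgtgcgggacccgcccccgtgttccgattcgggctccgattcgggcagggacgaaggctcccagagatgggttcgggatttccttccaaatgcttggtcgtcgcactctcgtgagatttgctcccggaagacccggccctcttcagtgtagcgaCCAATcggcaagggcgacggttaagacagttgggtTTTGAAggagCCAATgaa
Top2a, chr11:99024190-99024439, minus strand: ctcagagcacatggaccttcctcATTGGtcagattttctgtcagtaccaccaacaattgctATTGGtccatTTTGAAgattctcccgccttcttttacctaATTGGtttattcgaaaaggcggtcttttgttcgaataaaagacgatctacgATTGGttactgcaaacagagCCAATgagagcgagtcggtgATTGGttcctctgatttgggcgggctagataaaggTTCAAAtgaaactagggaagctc
In Ccnb2 the 3 CCAAT matches start 87, 54 and 21 bases before the start site, 33 bases apart.

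Brakes on the cycle rose in part. Of 18 cyclin D and inhibitor genes 10 rose and 3 fell (median 0.42). Cdkn2c, the inhibitor p18, rose from 1.61, 2.11 and 2.02 to 16.5, 14.2 and 13.5 CPM (2.94 ± 0.18), Cdkn1a, p21, by 1.20 ± 0.19 and Rbl2, the retinoblastoma relative p130, by 1.49 ± 0.08. Cdkn1c, the imprinted inhibitor p57, fell from 419, 433 and 443 to 227, 182 and 183 CPM (-1.13 ± 0.12), and Cdk4 fell too (-0.53 ± 0.10). The D cyclins themselves had no call, Ccnd2 being the lowest (-0.73 ± 0.31, edgeR adjusted p = 0.0685).

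All 11 tested genes of the oncofetal group, RNA-binding and chromatin proteins typical of embryonic tissue, fell (median -2.47). Lin28b fell from 41.8, 37.9 and 36.9 to 8.92, 11.4 and 10.5 CPM (-1.92 ± 0.10), beside -11.09 ± 0.56 for Lin28a, a difference that was not tested. Hmga2, a chromatin protein of growing embryos and a known let-7 target, fell from 213, 187 and 188 to 19.1, 26.5 and 23.0 CPM (-3.10 ± 0.15), and Igf2bp1, another target, from 259, 232 and 231 to 44.4, 49.9 and 48.2 CPM (-2.34 ± 0.09). Trim71, a ubiquitin ligase and a further let-7 target, fell (-5.93 ± 0.19), and so did Sall4, a factor of pluripotent cells (-4.46 ± 0.17).

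Mature microRNAs were not measured, but 2 of their host genes, chosen after their values were seen, moved in opposite directions. Mir99ahg (chromosome 16, 77236317 to 77691403, plus strand), which carries a let-7 gene, rose from 95.1, 119 and 122 CPM to 284, 357 and 332 CPM (1.53 ± 0.28, edgeR adjusted p = 8.07e-04). Mir17hg (chromosome 14, 115042879 to 115046727, plus strand), host of the cluster around miR-17, fell from 15.1, 13.7 and 14.1 CPM to 8.52, 8.25 and 9.28 CPM (-0.72 ± 0.13, edgeR adjusted p = 6.81e-04). Neither host overlapped between stages. The value of Mir99ahg, a long interval, is without the adjustment for gene length. A link of either host to the falls of the let-7 targets was not tested. Some of the RefSeq mature sequences lying inside the hosts are given 5′ to 3′ with the seed, bases 2 to 8, in capitals. Both hosts carry others with further seeds, among them miR-18a-5p and miR-92a-3p in Mir17hg, which are not printed. From Mir99ahg these are the following.
let-7c-5p: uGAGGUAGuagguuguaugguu
miR-99a-5p: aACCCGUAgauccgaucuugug
miR-125b-5p: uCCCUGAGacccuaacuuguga
From Mir17hg, miR-17-5p and miR-20a-5p share 1 seed and miR-19a-3p and miR-19b-3p share another.
miR-17-5p: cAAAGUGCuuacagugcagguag
miR-20a-5p: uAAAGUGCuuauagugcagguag
miR-19a-3p: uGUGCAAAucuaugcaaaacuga
miR-19b-3p: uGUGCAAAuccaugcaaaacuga

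Genes of DNA methylation split, 3 of 11 higher and 4 lower (median 0.05). Dnmt3b, the de novo methyltransferase named in the series title, stood at 24.2, 19.0 and 19.1 CPM at E9.5 and 6.26, 7.47 and 7.0 at E14 (-1.58 ± 0.19, edgeR adjusted p = 2.87e-05), without overlap. The maintenance enzyme Dnmt1 fell from 194, 213 and 215 to 128, 128 and 129.7 CPM (-0.69 ± 0.08) together with its partner Uhrf1 (-0.90 ± 0.08). Dnmt3a had 95.6, 107 and 105 CPM at E9.5 and 124, 134 and 122 at E14 (0.30 ± 0.12, edgeR adjusted p = 0.0582). Of the oxidases Tet2 rose by 1.08 ± 0.10 and Tet1 by 0.56 ± 0.09. Without E8.5 replicate 3, or with the 6 libraries fitted alone, 5 of the list were higher.

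Among splicing regulators of muscle 4 of 16 rose and 6 fell (median 0.08). Rbfox1, a regulator of muscle and brain exons, rose from 5.62, 8.35 and 10.7 to 51.5, 72.0 and 66.0 CPM (2.94 ± 0.27), and Rbfox2 overlapped (-0.01 ± 0.14, edgeR adjusted p = 0.954). Mbnl1 (0.53 ± 0.12) and Celf2 (0.96 ± 0.11) rose, but with the adjustment for gene length they were 0.17 (edgeR adjusted p = 0.208) and 0.20 (0.415). Gm26315, which overlaps Celf2 on the same strand, had 0.953 times its counts, so most reads counted for Celf2 can be those of Gm26315. Ptbp1, a repressor of muscle exons, fell (-0.60 ± 0.14), as did the epithelial regulator Esrp1 (-3.06 ± 0.52).

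Genes of connective tissue rose steeply. Of 26 fibroblast and matrix genes 22 were higher and 1 lower at E14 (median 2.34). Col3a1, a fibrillar collagen, rose from 105, 158 and 203 to 1183, 1123 and 1151 CPM (2.89 ± 0.19, edgeR adjusted p = 2.42e-07). Eln, the elastin gene of arteries and valves, rose from 0.512, 1.05 and 1.06 to 53.6, 109 and 80.8 CPM (6.52 ± 0.35), highest in E14 replicate 2, and Fbln5, which assembles elastic fibres, followed the same order of libraries at 19.4, 34.4 and 25.1 CPM (4.76 ± 0.31). Dcn (4.26 ± 0.31) and Col14a1 (4.62 ± 0.09) rose, with Postn, a matrix protein of fibroblasts and cushions, at 26.8, 28.9 and 50.2 and 300.0, 323 and 302 CPM (3.13 ± 0.22). Other matrix genes were lower: Fbln1 (-0.65 ± 0.08), Vcan, versican (-1.27 ± 0.12), Has2, the hyaluronan synthase of the cardiac jelly, from 66.1, 63.1 and 52.0 to 5.14, 4.6 and 4.87 CPM (-3.63 ± 0.17), and Hapln1, which links hyaluronan to versican, from 218, 225 and 219 to 20.4, 22.1 and 18.9 CPM (-3.43 ± 0.17).

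The valve and cushion list, to which Vcan and Has2 belong, had 8 of 17 lower and 3 higher (median -0.51). The transcription factors Msx1 (-2.55 ± 0.15), Msx2 (-3.97 ± 0.15) and Twist1 (-2.17 ± 0.23) fell, Snai2 rose (1.45 ± 0.17), and Sox9 overlapped (-0.56 ± 0.32, edgeR adjusted p = 0.163). Without E8.5 replicate 3, 5 of the list rose. The epicardium depended on the E9.5 library. Upk3b, a marker of this outer layer, stood at 3.03, 14.4 and 22.4 CPM at E9.5 and 38.0, 30.5 and 32.4 at E14, and Wt1 at 10.6, 23.5 and 31.3 and 37.7, 43.1 and 37.6 (edgeR adjusted p = 0.0512 and 0.105), with E9.5 replicate 1 lowest in both. Of 16 epicardial genes 6 rose and 2 fell (median 0.79). Without E9.5 replicate 3, 11 rose and the median was 1.21, and without replicate 1 it was 0.48. Msln (5.53 ± 0.61) and Muc16 (5.03 ± 0.38), surface proteins of mesothelium, had the largest rises, and Podxl fell (-2.10 ± 0.14).

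Of 22 genes of coronary and capillary endothelium 18 rose and 1 fell (median 1.09). Pecam1, of all endothelium, rose from 46.2, 54.1 and 49.4 to 108, 109.8 and 108 CPM (1.12 ± 0.09). Gpihbp1, which holds lipoprotein lipase on capillaries, rose from 0.158, 0.0566 and 0.0114 to 4.08, 4.24 and 4.42 CPM (5.84 ± 0.48), Cldn5 by 2.76 ± 0.25 and Meox2 by 5.39 ± 0.34. Car4 fell from 12, 5.47 and 4.67 to 0, 0.130 and 0.0651 CPM (-6.58 ± 0.60). The endocardial list had 5 of 14 higher and 5 lower (median 0.02), with Npr3 higher (0.94 ± 0.11) and Wnt4 lower (-1.30 ± 0.33). With the adjustment for gene length 7 were lower and the median was -0.22. Its summed level was 581 to 675 CPM at E9.5 and 432 to 474.5 CPM at E14. In means over the libraries, this sum fell by less than its member Hapln1 did alone (221 to 20.4 CPM). Of the smooth muscle genes, Lmod1 fell, and so did Acta2 (-1.49 ± 0.10) and Tagln, which early heart muscle also expresses, the latter from 274, 265 and 264 to 31.6, 31.0 and 30.0 CPM (-3.12 ± 0.08). Of genes that mark pericytes, Kcnj8 rose from 0.105, 0.204 and 0.160 to 11.4, 12.6 and 12.2 CPM (6.25 ± 0.24), as did Mcam (2.03 ± 0.17) and Pdgfrb (1.53 ± 0.09), while Notch3 (-0.70 ± 0.14) and Vtn (-2.29 ± 0.69) fell. Vtn was not called without E9.5 replicate 3 or E14 replicate 2 (edgeR adjusted p = 0.0788 and 0.0567). Of the 16 smooth muscle and pericyte genes 6 rose and 6 fell.

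Of 21 macrophage and leukocyte genes 17 rose and none fell (median 1.51). C1qc, a complement chain of tissue macrophages, rose from 0.210, 0.125 and 0.126 to 5.01, 4.45 and 4.62 CPM (4.94 ± 0.48, edgeR adjusted p = 6.37e-06), with C1qa and C1qb at 4.67 ± 0.58 and 4.51 ± 0.55. F13a1, of resident macrophages, rose from 0.722, 0.895 and 1.35 to 22, 18.3 and 17.6 CPM (4.28 ± 0.22) and Mrc1 from 4.04, 3.09 and 3.42 to 21.5, 19.5 and 19.3 CPM (2.52 ± 0.24). Without E9.5 replicate 1, which had more Ptprc than the other 2 (0.774, 0.204 and 0.274 CPM), the median was 2.62.

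Blood changed its globins. All 4 embryonic globins fell and all 4 adult globins found in the table rose (medians -2.87 and 5.85). Hbb-bh1, an embryonic beta globin (chromosome 7, 103841637 to 103843164, minus strand), went from 869, 1656 and 2243 to 7.27, 2.86 and 8.81 CPM (-7.99 ± 0.51, edgeR adjusted p = 4.17e-07). Hbb-bt, an adult beta globin of the same cluster (chromosome 7, 103812524 to 103813996, minus strand), went from 21.6, 18.2 and 25.1 to 7228, 2717 and 8916 CPM (8.18 ± 0.74). Within E14 both were lowest in replicate 2, while their ratio was nearly constant, at 9.86, 9.66 and 9.90 on the log2 scale. Hbb-y, another embryonic beta globin, fell (-1.56 ± 0.52, edgeR adjusted p = 0.0289), a call that ended without E9.5 replicate 2 or 3 or E14 replicate 2 (0.0631, 0.107 and 0.0732).

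Of 16 other red cell genes 9 fell and 1 rose (median -0.96). Klf1, the master factor of red cells, fell from 6.83, 11.7 and 15.5 to 0.342, 0.443 and 0.508 CPM (-4.70 ± 0.29), and Gata1 (-3.47 ± 0.29) and the erythropoietin receptor gene Epor (-3.18 ± 0.22) fell with it. Alas2, the first enzyme of haem synthesis in red cells, was the one that rose, 38.6, 54.5 and 73.3 to 244, 92.6 and 266 CPM (1.85 ± 0.37). Slc4a1, the anion exchanger of the red cell membrane, overlapped at 73.4, 116 and 155 and 97.8, 35.1 and 99.9 CPM (-0.57 ± 0.46, edgeR adjusted p = 0.338). Leaving globins and small structural RNAs out of the table gave 7000 genes higher and 7114 lower, of which 6980 and 6805 were the same as before.

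Genes listed as markers of tissue from outside the heart were read too. Whether cells of the heart itself express them was not tested. Of 15 foregut and epithelial genes 11 fell and 1 rose (median -2.93), Krt8 from 93.5, 65.7 and 67.5 to 4.12, 2.92 and 3.54 CPM (-4.43 ± 0.26) and Epcam from 1.5, 1.94 and 2.40 to 0.266, 0.173 and 0.234 (-3.14 ± 0.61). The 16 liver and visceral endoderm genes summed to 14.6, 92.8 and 161 CPM at E9.5 and to 28.5 to 33.2 at E14, so they differed more among E9.5 libraries than between stages. Afp led them, at 2.0, 61.5 and 112 CPM at E9.5. Between 0 and 9 of them were called lower depending on the library left out, 2 with all libraries. Of 12 somite and skeletal muscle genes 6 rose and 1 fell. These were the embryonic and perinatal myosins Myh3 (4.82, 3.34 and 1.78 CPM at E14, 5.23 ± 0.47) and Myh8 (9.55, 7.32 and 7.44 CPM, 6.56 ± 0.43) and, at about 1 CPM, Myog (4.21 ± 0.65) and Msc (4.79 ± 0.48), with Meox1 and Tcf15. Myod1, Myf5 and Myf6, the determining factors of skeletal muscle, lay below the filter. Of 8 lung markers 3 fell and none rose, with Nkx2-1 at 0, 0 and 0.0130 CPM at E14. Of the thymus and T cell markers 6 were testable and none rose.

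Of 4355 long non-coding RNA genes tested 1145 rose (26.3%) and 812 fell (18.6%), beside 5231 (30.1%) and 4955 (28.5%) of 17384 protein-coding genes. The largest rise was that of A930016O22Rik (chromosome 7, 19417466 to 19421417, minus strand), from 0.551, 0.476 and 0.696 to 184, 161 and 164 CPM (8.2 ± 0.16). It lies inside Ckm on the other strand, and since the counting is not stated to use strand, its reads and those of Ckm cannot be told apart. Gm32569 (5.06 ± 0.36) stands in the same relation to Dpt. Gm26870 on chromosome 9 rose by 8.06 ± 1.0, from 2.77, 8.62 and 0.0913 CPM in E9.5 libraries that differed widely. The largest falls were Gm17575 (-4.25 ± 0.13) and Platr30 (-4.06 ± 0.14), neighbours on opposite strands of chromosome 3 with nearly equal values in every library (21.4, 22.6 and 16.8 and 21.2, 22.5 and 16.8 CPM at E9.5), which may share reads, and Gm2117 on the X chromosome (-3.57 ± 0.16).

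Other overlaps bear on genes named here. By count, the overlapping gene had more than 0.5 times the counts of Mef2a (Lysmd4), Pln (Cep85l), Cox6a2 (Itgad), Cpt1b (Chkb), Gja5 (Gm43734), Actc1 (A530058N18Rik), Hand2 (Gm28063), Celf2 (Gm26315), Rbl2 (Aktip), Xirp2 (Gm13601) and Mpc1 (4930506C21Rik). The same held for Jph1 (Gm28376), Msc (Gm9947), Tnnc1 (Nisch), Nppa (Gm13054), Sptbn4 (Gm20479), Acadvl (Dvl2), Fabp3 (Zcchc17), Ucp3 (Gm10603), Pfkm (Senp1), Ptbp1 (Plppr3), Alas2 (Apex2), Nkx2-1 (Gm26973) and Afp (Gm43449). Acta1 and Foxf1 lie inside the long interval Gm20388. The values of these genes can include reads of the partner.

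Levels at the earlier stages place 4 more genes in time. Lin28a had 220.4, 242 and 240.0 CPM at E8 and 166, 171 and 269.7 at E8.5, above all its E9.5 values. Ckm, at 0.936, 0.944 and 0.918 and 0.816, 0.601 and 0.705 CPM in the earlier stages, was near its E9.5 level throughout and rose after E9.5. Slc2a1 stood at 396, 420.0 and 419 and 454, 456 and 508 CPM, and Pln at 11.4, 11.4 and 11 and 12.5, 11.4 and 5.97. These earlier values are given without a test.

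**Figure D5:**
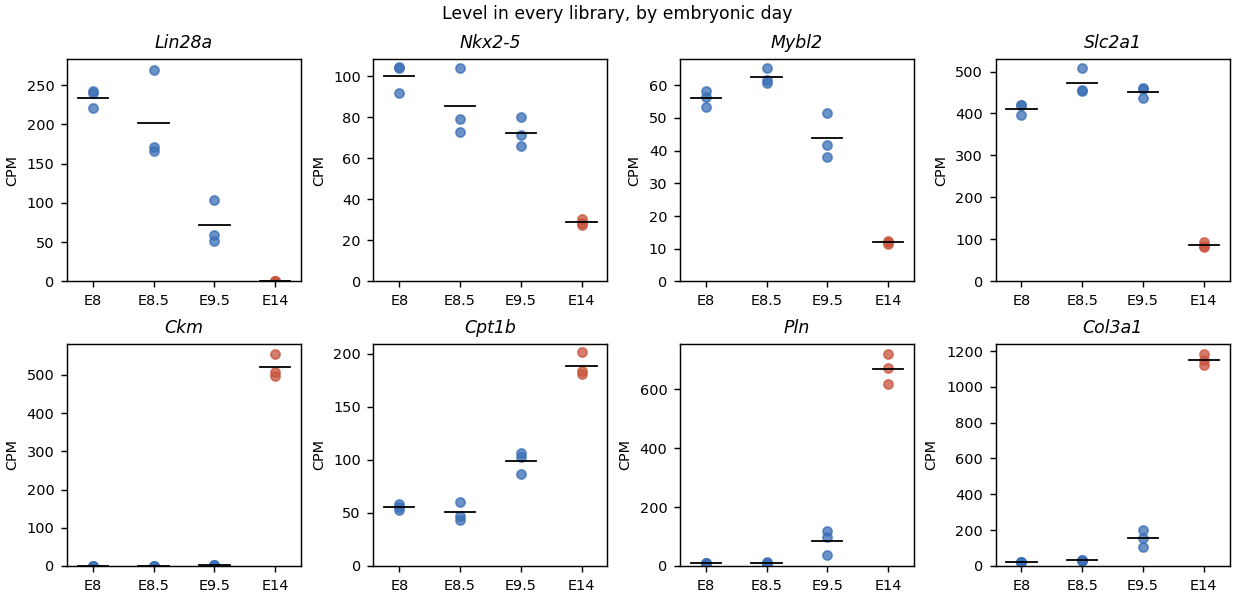
CPM of 8 genes in each of the 12 libraries by embryonic day, with a bar at the mean of 3 libraries and E14 in a second colour. Ckm, Cpt1b, Pln and Col3a1 are highest in the 3 E14 libraries, and Lin28a, Nkx2-5, Mybl2 and Slc2a1 are lower at E14 than at E9.5.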

How the data were processed

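Total RNA of dissected mouse cardiogenic regions was sequenced in 12 libraries, 3 at each of 4 stages. The authors deposited a table of raw read counts per gene interval. STAR 2.5.0 and Cufflinks 2.2.1 and the builds GRCm38, mm10 and hg38 are named, per the submitters' processing notes. The counting tool, strand setting and annotation were not given in the sources used here. Many genes overlap another interval (21224 of 48709), and without strand their reads cannot be told apart. By coordinates and name, 42778 intervals matched GENCODE's mouse gene annotation exactly, 5645 by symbol, and 286 did not match. Gene types, such as protein-coding and long non-coding, were taken from that annotation. A name was repeated for 238 intervals. No column of samples was left unused.

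Deposited counts were tested with edgeR 4.0.16 in R 4.3.3 (TMM scaling, its expression filter by stage, robust quasi-likelihood F-test, two-sided, with Benjamini-Hochberg adjustment over 28846 genes). All 12 libraries entered the fit and shared 1 estimate of the spread (common dispersion 0.0362), with the contrast of E14 minus E9.5. CPM were computed on TMM library sizes. CPM are not divided by gene length, so levels are not compared between genes. On simulated counts with 200 changed genes, the test recovered 57.6% of 2-fold and 89.6% of 4-fold changes, with 7 false calls. The simulation changed far fewer genes than the 50.0% called in the data, so these figures need not hold for this comparison. Isoform ratios used a pseudocount of 0.5 CPM.

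Gene lists and members were chosen with earlier results of these data known. The genes named by rule were the 12 largest called changes in each direction with separated libraries and a mean of 10 CPM or more in the higher stage, up to 4 called genes per list by size of the change at 1 CPM or more, both genes of each isoform pair, genes named in the labels or title or used as markers, and the 3 largest changes among long non-coding RNAs in each direction. Further list members, Upk3b, Ptprc and the microRNA hosts among them, were named after their values were seen. Alternatives were other scaling factors (RLE, upper quartile), other filters, 6 libraries alone, a replicate block, a test against 2-fold (glmTreat), omission of globins and small structural RNAs, a loess adjustment for the genomic length of genes, DESeq2 1.42.0, and each library left out in turn. Figures were drawn with matplotlib 3.10.9 from tables made with pandas 2.3.3. Results for a few genes are not reported here.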

Additional observations from a re-analysis of the deposited data

How the results depend on the processing

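The counts of 7334 genes higher and 7082 lower at E14 ranged from 6089 to 7916 and from 6112 to 8369 as each library was left out. They stayed within 1.5 times under other scaling, filters, 6 libraries alone, omission of globins and small structural RNAs, the adjustment for gene length (6966 and 7639) and DESeq2 (7215 and 7356). The test against a 2-fold change gave 1871 higher and 985 lower, beside 3630 and 2258 genes whose fitted change was at least 2-fold. A filter of 1 CPM in 3 libraries left 2272 and 1375 of those, with fewer genes tested. The data gave no sign that the replicate numbers pair the libraries, which 3 libraries a stage cannot exclude. The deviations of same-numbered libraries correlated at -0.060, -0.0023 and -0.039, and those of differently numbered ones at -0.039 to 0.067. A replicate block gave 7107 higher and 6867 lower. The adjustment for gene length reversed the sign of Tjp1 (-0.30), Itpr1 (-0.35), Esrrg (-0.42), Atp5o (-0.11) and Nrg1 (-0.69). Of these, Atp5o was called higher without it (0.33) and lost its call with it (edgeR adjusted p = 0.479). The other 4 were not called without it and were called lower with it (edgeR adjusted p = 0.00992, 0.0105, 0.0265 and 5.49e-06). It also gave opposite calls for 9 genes of the whole table. Of the 188 genes named by rule and called, between 0 and 7 lost the call under each alternative, and 52 under the test against 2-fold. Of the genes described, Ttn, Hbb-y and Ccnb2 lost their calls under the block (edgeR adjusted p = 0.0604, 0.0600 and 0.0552). Neural tube genes called lower numbered 5 in place of 2 without E8.5 replicate 3. The cause of these shifts was not tested. Among the ratios of isoforms, that of Cox8b to Cox8a moved to 4.64 at a pseudocount of 0.1 CPM and 2.62 at 2 CPM. Depth limits genes of few counts: Myod1, with 23 counts at E14 and 2 at E9.5, lay below the filter.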

Other observations

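Genes of lymphatic endothelium, the vessels that drain tissue fluid, were split: 4 of 8 rose and 2 fell (median 0.68). Prox1, the factor that sets lymphatic identity and is also present in heart muscle, stood at 36.8, 34.1 and 32.1 CPM at E9.5 and 60.9, 62.4 and 62.9 at E14 (0.85 ± 0.14, edgeR adjusted p = 2.84e-04). Flt4, the receptor for the lymphatic growth factor VEGF-C, went from 16.3, 15.3 and 13.9 to 21.1, 22.4 and 20.9 CPM (0.50 ± 0.09). Lyve1, a hyaluronan receptor of lymphatics and some macrophages, was not called, at 1.80, 3.38 and 3.17 and 9.32, 7.62 and 8.60 CPM (1.61 ± 0.65, edgeR adjusted p = 0.0594). Reln, reelin, fell from 46.7, 56.0 and 76.7 to 18.3, 15.5 and 15.3 CPM (-1.87 ± 0.22).

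Of 20 genes of neural crest, glia and cardiac nerves 6 rose and 4 fell (median 0.28). With a filter of 1 CPM in 3 libraries 2 rose and 1 fell. The summed level of the list was 67.3 to 92.9 CPM at E9.5 and 140 to 156 CPM at E14. In means over the libraries, this sum rose by less than its member Ednrb did alone (34.8 to 103.5 CPM). Ednrb, an endothelin receptor of crest-derived cells, stood at 27.6, 37.7 and 39.0 and 113, 96.8 and 101 CPM (1.57 ± 0.19, edgeR adjusted p = 3.12e-05), and Prph, a filament of peripheral neurons, at 0.223, 0.125 and 0.137 and 0.550, 0.583 and 0.573 (1.82 ± 0.39). The early crest factor gene Tfap2a fell (-1.92 ± 0.37). Of 11 cartilage and trachea genes 4 rose and 3 fell (median 0.18), and with a filter of 1 CPM in 3 libraries 2 rose and the median was -0.40. Comp, a matrix protein of cartilage and tendon, went from 0.0919, 0.0793 and 0.0799 to 1.10, 1.11 and 1.19 CPM (3.74 ± 0.33). Matn3, a cartilage matrilin, went from 2.59, 3.33 and 2.48 to 0.0759, 0.0756 and 0.0782 CPM (-5.17 ± 0.22). Of 9 neural tube genes that could be tested 2 rose and 2 fell (median -0.79), all of them under 2 CPM in every library.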
